A study of Mus musculus with 9 samples.

Results

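Heparan sulfate is a long, sulfated sugar chain, and the genes described here make it, edit it or carry it. The 36 genes were chosen by name, and each matched 1 symbol among the 31053 genes counted. They comprise the chain polymerases and their relatives (Ext1, Ext2, Extl1, Extl2 and Extl3), the N-deacetylase and N-sulfotransferases (Ndst1, Ndst2, Ndst3 and Ndst4), the epimerase Glce, the 2-O-, 6-O- and 3-O-sulfotransferases (Hs2st1, Hs6st1, Hs6st2, Hs6st3, Hs3st1, Hs3st2, Hs3st3a1, Hs3st3b1, Hs3st4, Hs3st5 and Hs3st6), the extracellular 6-O-sulfatases Sulf1 and Sulf2, the chain-cleaving enzyme Hpse, the glypicans (Gpc1, Gpc2, Gpc3, Gpc4, Gpc5 and Gpc6), the syndecans (Sdc1, Sdc2, Sdc3 and Sdc4), agrin (Agrn) and perlecan (Hspg2). They were measured in nuclei of the mouse cortex and hippocampus, by class of nucleus and in 3 groups of mice.

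As background, chains are started on a protein core through a short linker, lengthened in the Golgi by Ext1 and Ext2, and then modified in steps, from N-sulfation through epimerization to sulfation of the sugar rings. The pattern of sulfates decides which growth factors, axon guidance cues and matrix proteins the chain can hold, and the sulfatases remove some of them again at the cell surface. On vessels, syndecans and glypicans belong to the glycocalyx facing the blood, and agrin and perlecan to the basement membrane beneath the endothelium.

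The study compared 3 groups of 3 male wild-type C57BL/6 mice, with 1 library per mouse. Young mice (5 months) and aged mice (19 months) had received AAV-EGFP, and a further group of aged mice (19 months) had received AAV-B3GNT3, which encodes an O-glycan elongating enzyme. All 9 mice thus carried a virus. It had been injected 8 weeks before collection in the AAV-PHP.V1 capsid, with expression driven by an endothelial promoter (sCLDN5), so that its cargo is directed to brain endothelial cells (BECs) and any change in other classes lies outside the targeted cells. Aged AAV-EGFP against young AAV-EGFP is the comparison of age, and aged AAV-B3GNT3 against aged AAV-EGFP is the comparison of treatment. Both use the same aged AAV-EGFP mice. The study obtained its aged mice from the National Institute on Aging colony and its young mice from Jackson Laboratories. Source therefore cannot be told apart from age in the comparison of age.

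The libraries held between 47332047 and 79964605 unique molecular identifiers (UMIs, counts of captured transcripts), and 70352 of 77823 barcodes were kept. Classes were named from marker genes after clustering without the 36 members. The 9 classes tested were excitatory neurons (ExN, 20342 nuclei), inhibitory neurons (InN, 8032), astrocytes (8422), oligodendrocytes (20400), oligodendrocyte precursors (OPC, 2440), microglia (MG, 1920), BECs (777), pericytes (958) and fibroblasts (1244). Each had all of its own markers detected in every library, and the BEC markers together were at 195.1 times their level in the whole library. Clusters with markers of more than 1 class, or with too few markers, were left unnamed and not tested. The largest held 2857 nuclei, with markers of subcortical glutamatergic neurons and InN. It had 619, 680 and 220 nuclei in young AAV-EGFP, 426, 63 and 232 in aged AAV-EGFP and 65, 236 and 316 in aged AAV-B3GNT3 mice. The whole-library level covers all barcodes, these included. Of the InN, 3639 nuclei formed a cluster named Drd2 striatal-like, which also passed the Drd1 striatal-like and Lamp5 interneuron lists. It held 316, 629 and 143 of 803, 1136 and 506 InN nuclei in the young AAV-EGFP mice. In the aged AAV-EGFP mice it held 416, 481 and 593 of 847, 1227 and 1088, and in the aged AAV-B3GNT3 mice 291, 447 and 323 of 636, 991 and 798. The part of this cluster in the InN levels was not tested. Levels are given as CPM, that is UMIs of a gene per 1000000 UMIs of that class in that mouse. The number of nuclei and the total RNA per nucleus are thus divided out, and a level is a share of the class total. Differences are given as log2 fold changes with their standard error (SE). Nuclei take up free RNA from the suspension, and its share was estimated from marker genes of other classes. It differed between the groups. In oligodendrocytes the estimate was 30.7 to 33.6% in young AAV-EGFP, 15.7 to 26.7% in aged AAV-EGFP and 23.9 to 31.5% in aged AAV-B3GNT3 libraries, and in microglia it was 36.2 to 40.7%, 17.5 to 24.4% and 24.98 to 34.96%. In BECs it spanned 20.4 to 61.7%. Each member's level was therefore also set against its level in the whole library.

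The heparan sulfate genes differed in the class where they were highest. Of the 36 members, 32 reached 10 UMIs per mouse on average in their highest class, and for 19 of these the highest class stood above the next at an adjusted p under 0.05 (exact paired permutation test over the 9 mice, two-sided). The smallest p that 9 mice allow is 0.00391, which becomes 0.00781 after adjustment over the members, and a member higher in 9 of 9 mice has this value. The classes compared for a member were picked from the same values, so that these tests describe how steady the order was. The map of mean levels by class shows the pattern for all members. Hs3st6, Gpc2 and Sdc1 were close to absent, with at most 6, 58 and 8 UMIs in any class over all mice, and were not tested further.

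**Figure D1:**
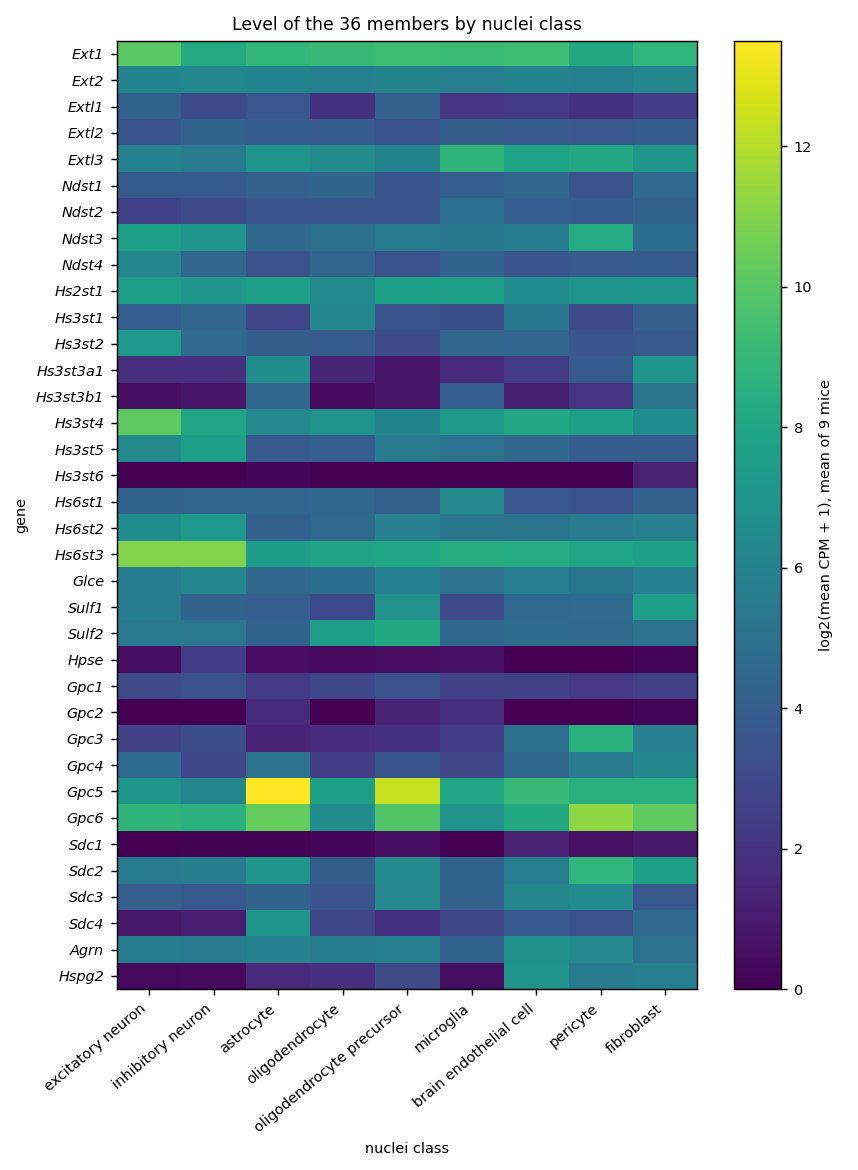
Mean level of each of the 36 members (rows) in the 9 nuclei classes (columns), as log2(mean CPM + 1) over 9 mice, by colour. Gpc5 is brightest in astrocytes and OPCs, Hs6st3 in both neuron classes, Gpc6 in pericytes, and Hspg2 is seen in BECs, pericytes and fibroblasts.

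Among the polymerases, Ext1 was highest in ExN, at 1072 ± 57.9 CPM (SD, n = 9), against 614 ± 65.2 CPM in OPC, and was higher in 9 of 9 mice. Ext2, its obligate partner in the polymerase, was even across classes (56.2 CPM in MG to 77.9 CPM in fibroblasts). Extl3, a glucosaminyltransferase that can start the chain, was highest in MG, at 457 ± 120.6 CPM, with pericytes next at 282 ± 49.0 CPM (higher in 8 of 9 mice, adjusted p = 0.0139, exact permutation test). Extl1 and Extl2 did not separate their 2 highest classes.

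The N-sulfotransferases, which set where all later sulfates can go, differed by member. Ndst1 and Ndst2 were low, at most 23.5 CPM (fibroblasts) and 29.8 CPM (MG). Ndst3 was highest in pericytes, at 313 ± 104.5 CPM, above 207 ± 41.3 CPM in ExN (8 of 9 mice, adjusted p = 0.0197, exact permutation test). Ndst4 was highest in ExN, with 76, 103 and 55.2 CPM in the young AAV-EGFP mice, 152, 57.4 and 19.7 CPM in the aged AAV-EGFP mice and 41, 44.7 and 125 CPM in the aged AAV-B3GNT3 mice. The spread within each group was large and the groups overlapped. Ndst4 was concentrated in particular ExN clusters, at 263 ± 101 CPM in CA1 and 253 ± 170 CPM in layer 5 projection clusters, against 2.76 CPM in layer 6 corticothalamic clusters. Neuron clusters are named by the marker list they matched best, and some passed others too. The CA1 cluster also passed the CA3 list and the layer 5 cluster that of near-projecting neurons. The near-projecting cluster also passed those of middle-layer and layer 6 corticothalamic neurons.

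Of the ring sulfotransferases, Hs6st3 had similar class sums in the neurons, at 1995 ± 192 CPM in ExN and 1979 ± 315 CPM in InN. These did not differ beyond their spread (adjusted p = 0.871, exact permutation test). The levels were not even within the classes. Within ExN Hs6st3 ranged from 136 CPM in layer 6 corticothalamic to 3788 ± 642 CPM in CA1 clusters. Within InN the Drd2 striatal-like cluster was at 3509 ± 463 CPM, above the level of the class. Hs6st2 was higher in the InN class sum than in ExN, at 159 ± 19.1 against 93.5 ± 14.0 CPM, in 9 of 9 mice. The Drd2 striatal-like cluster of InN was at 271 ± 28.7 CPM, with 8730 UMIs over the 9 mice, against 1329 UMIs per mouse on average in all InN. Whether the order holds in the InN nuclei outside this cluster was not tested. Hs6st1 was highest in MG, at 80.04 ± 18.1 CPM, against 21.8 ± 6.80 CPM in oligodendrocytes. In MG it stood at 76.2, 62.1 and 75.7 CPM in the young AAV-EGFP mice, 72.6, 53.3 and 85.7 CPM in the aged AAV-EGFP mice and 93, 115 and 86.4 CPM in the aged AAV-B3GNT3 mice. Young and aged AAV-EGFP mice overlapped, and the 3 aged AAV-B3GNT3 mice were the highest, with an estimate for treatment of 0.46 ± 0.24 that did not pass (adjusted p = 0.313, edgeR).

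The 3-O-sulfotransferases add the rarest modification, which creates binding sites for antithrombin in the case of Hs3st1, and they divided the tissue between them. Hs3st2 in ExN was at 179, 160.1 and 165 CPM in the young AAV-EGFP mice, 124, 139 and 126 CPM in the aged AAV-EGFP mice and 145, 169 and 109 CPM in the aged AAV-B3GNT3 mice, against 25.8 ± 9.67 CPM in InN. Hs3st4 in ExN was at 1146, 1130 and 1342 CPM in the young AAV-EGFP mice, 951, 1437 and 1281 CPM in the aged AAV-EGFP mice and 1113, 1005 and 827 CPM in the aged AAV-B3GNT3 mice, with 255 ± 40.8 CPM in InN. It was highest in the layer 6 corticothalamic clusters (4420 ± 353 CPM) and the near-projecting clusters (3181 ± 524 CPM), and lowest in the upper-layer clusters (64.7 CPM). Hs3st5 was the member with the opposite order, and in InN stood at 239, 254 and 233 CPM in the young AAV-EGFP mice, 235, 181 and 172 CPM in the aged AAV-EGFP mice and 129.98, 168 and 132 CPM in the aged AAV-B3GNT3 mice, with ExN at 79.8 ± 17.1 CPM. All 3 separated the neuron classes in 9 of 9 mice. Hs3st1 was highest in oligodendrocytes, at 79.2 ± 18.5 CPM, and BECs came next, at 37.5 ± 22.4 CPM.

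**Figure D2:**
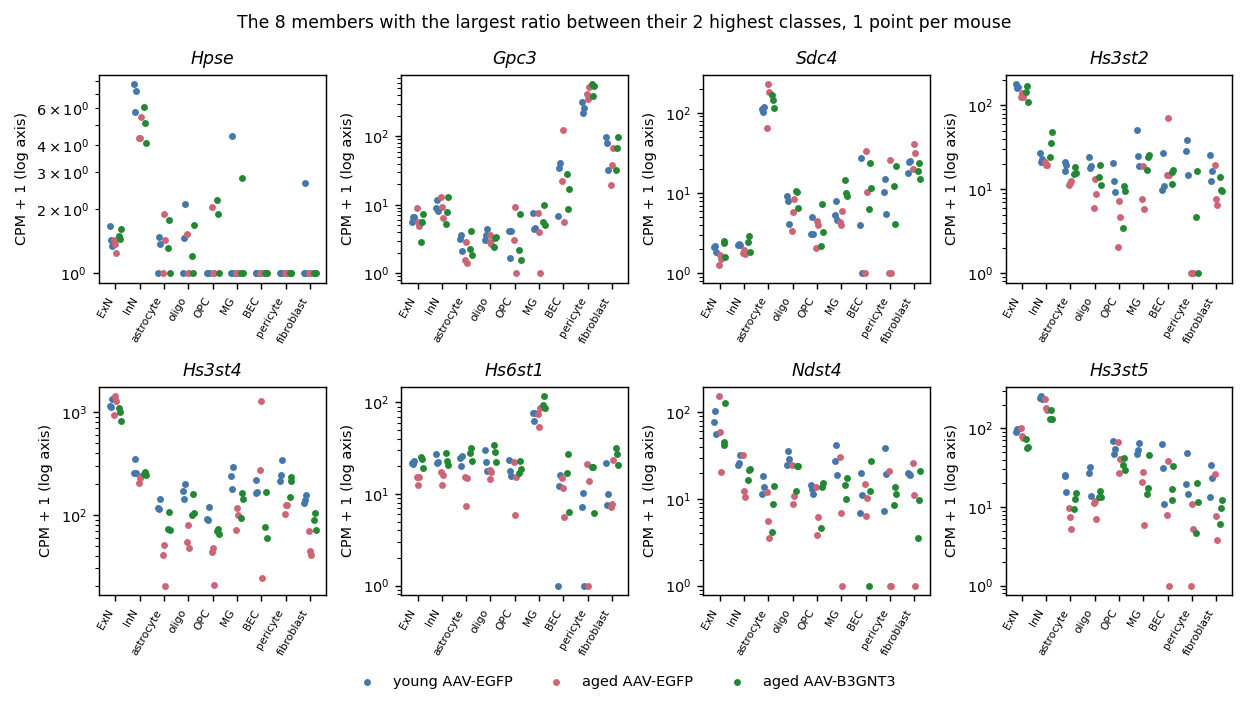
Level of the 8 members with the largest ratio between their 2 highest classes, as CPM + 1 on a log axis, with 1 point for each of the 9 mice per class, coloured by group. The class with the highest mean is above the next in every mouse, as for Gpc3 in pericytes at 215 to 579 CPM and Sdc4 in astrocytes at 63.2 to 227 CPM.

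Hs3st3a1 and Hs3st3b1, whose enzymes are near-identical in their catalytic part, lie 513 kb apart on chromosome 11 (GRCm38), with 5 genes between them, and had the same 2 leading classes. Reads that match both copies could be divided between them, so that their levels are uncertain to that extent. Hs3st3a1 (chr11:64435332-64522841, plus strand) was at 124 ± 37.3 CPM in fibroblasts and 96.4 ± 34.5 CPM in astrocytes, and at most 13.2 CPM in the other classes. Hs3st3b1 (chr11:63885792-63922290, minus strand) was at 35.9 ± 20.4 CPM in fibroblasts and 23.0 ± 7.47 CPM in astrocytes, and at 15.6 CPM in MG. Neither was separated between fibroblasts and astrocytes (adjusted p = 0.21 for both, exact permutation test). Fibroblast nuclei also held the astrocyte markers at 1705 to 2886 CPM in sum, against 2997 to 4844 CPM in astrocytes, and Gpc5, the most abundant astrocyte member, at 350 CPM against 11621 CPM; their part in the levels of the Hs3st3 genes was not tested. The sequences around the starts of this neighbouring pair are shown because both genes had this pattern in common, and that of Hspg2 because it had the highest BEC level relative to the whole library. They run from 250 bases before to 50 bases after the start, 5′ to 3′ on the gene's strand, from RefSeq (GRCm38.p6), where all 3 matched. Capitals mark the GC box (GGGCGG on either strand) and the E-box (CACGTG).
Hs3st3a1, chr11:64435082-64435381, plus strand: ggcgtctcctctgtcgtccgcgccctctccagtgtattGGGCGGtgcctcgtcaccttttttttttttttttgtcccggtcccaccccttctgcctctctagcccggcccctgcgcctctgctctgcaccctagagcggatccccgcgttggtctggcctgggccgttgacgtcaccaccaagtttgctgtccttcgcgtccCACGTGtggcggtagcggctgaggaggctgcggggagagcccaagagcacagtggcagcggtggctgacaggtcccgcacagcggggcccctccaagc
Hs3st3b1, chr11:63922235-63922534, minus strand: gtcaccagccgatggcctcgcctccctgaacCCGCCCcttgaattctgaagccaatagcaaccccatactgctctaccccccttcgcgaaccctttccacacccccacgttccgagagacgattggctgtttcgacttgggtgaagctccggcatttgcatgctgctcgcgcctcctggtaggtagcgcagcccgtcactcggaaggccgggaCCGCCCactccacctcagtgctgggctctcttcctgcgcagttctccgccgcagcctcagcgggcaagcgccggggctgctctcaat
Hspg2, chr4:137468553-137468852, plus strand: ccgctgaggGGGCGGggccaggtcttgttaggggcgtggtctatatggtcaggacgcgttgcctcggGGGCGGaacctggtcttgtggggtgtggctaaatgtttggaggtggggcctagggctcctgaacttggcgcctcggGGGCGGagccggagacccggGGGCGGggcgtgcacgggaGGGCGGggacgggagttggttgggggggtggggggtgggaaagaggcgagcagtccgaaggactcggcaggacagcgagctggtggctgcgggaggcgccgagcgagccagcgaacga
The search found 1 GC box and 1 E-box for Hs3st3a1, 2 GC boxes for Hs3st3b1 and 5 for Hspg2, and no overlap between the motifs. Of 32851 RefSeq promoters of this length, 35.7% held a GC box and 7.15% an E-box. Searches for TATAAA, for ACAATGG (SOX), for TGACTCA (AP-1) and for CCGGAA (ETS) found no match in the 3 windows, whereas 13.6%, 3.66%, 5.2% and 14.9% of all promoters held them. These matches describe the letters and do not identify bound sites.

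The editing enzymes had their own places. Sulf1 was highest in fibroblasts, at 188 ± 52.8 CPM, above OPC at 112 ± 14.3 CPM (8 of 9 mice, adjusted p = 0.0139, exact permutation test). Among neurons it was highest in the layer 6 corticothalamic clusters, at 163 ± 31.9 CPM, followed by a cluster led by Hs3st2 at 90.5 ± 17.4 CPM and deep intratelencephalic clusters at 42.9 ± 13.8 CPM, against 2.22 CPM in middle-layer clusters. Sulf2 was highest in the oligodendrocyte lineage, at 290 ± 54.6 CPM in OPC and 186 ± 68.8 CPM in oligodendrocytes (higher in OPC in 9 of 9 mice). Hpse, the heparanase, was low, at 6.78, 4.73 and 6.25 CPM in the young AAV-EGFP mice, 3.34, 3.32 and 4.44 CPM in the aged AAV-EGFP mice and 5.04, 4.09 and 3.11 CPM in the aged AAV-B3GNT3 mice in InN, which was above ExN (0.456 ± 0.134 CPM) in 9 of 9 mice, and no Hpse UMI was found in BECs or pericytes.

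Among the core proteins, Gpc5 was an astrocyte gene in all mice, at 9162, 10609 and 10674 CPM in the young AAV-EGFP mice, 12945, 12913 and 12464 CPM in the aged AAV-EGFP mice and 11484, 11526 and 12814 CPM in the aged AAV-B3GNT3 mice. OPC followed at 5350 ± 623 CPM, and among neurons the CA1 clusters had the most, at 596 ± 164 CPM. Its neighbour Gpc6, 400 kb away on chromosome 14, was highest in pericytes at 2355 ± 382 CPM, then in astrocytes at 1258 ± 214 CPM (9 of 9 mice). Gpc3 in pericytes was at 313, 215 and 255 CPM in the young AAV-EGFP mice, 414, 344 and 525 CPM in the aged AAV-EGFP mice and 579, 387 and 546 CPM in the aged AAV-B3GNT3 mice, with fibroblasts next at 57.8 ± 29.2 CPM. Gpc4, 107 kb from Gpc3 on chromosome X, was spread over fibroblasts (79.4 ± 37.8 CPM), pericytes (46.1 ± 16.4 CPM) and astrocytes, and reached 183 ± 39.5 CPM in dentate granule clusters. Gpc1 averaged under 10 CPM over the 9 mice in each class.

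Among the syndecans, transmembrane carriers that link the chain to the cytoskeleton, Sdc4 was in astrocytes at 109, 101 and 117 CPM in the young AAV-EGFP mice, 63.2, 227 and 179.8 CPM in the aged AAV-EGFP mice and 165, 143 and 114 CPM in the aged AAV-B3GNT3 mice, against 23.2 ± 8.13 CPM in fibroblasts. Sdc2 was highest in pericytes, at 480 ± 106 CPM, above fibroblasts at 200 ± 32.2 CPM in 9 of 9 mice. Pericyte nuclei held the fibroblast markers at 694 to 2170 CPM in sum, against 2705 to 3676 CPM in fibroblasts, with 3 of 6 in every library, and at finer clustering the fibroblast cluster carried markers of both classes and was left unnamed. Their part in the pericyte levels of Sdc2, Gpc3 and Gpc6 was not tested. Sdc3 was shared by pericytes (91.7 ± 17.9 CPM), OPC (81.6 ± 11.4 CPM) and BECs (69.5 ± 24.9 CPM), and the first pair did not differ beyond its spread (adjusted p = 0.163, exact permutation test).

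In BECs, the class the vector targets, Hspg2, which encodes perlecan, was at 127, 82.3 and 100.1 CPM in the young AAV-EGFP mice, 168, 107 and 117 CPM in the aged AAV-EGFP mice and 69.6, 182 and 101 CPM in the aged AAV-B3GNT3 mice, above fibroblasts (56.0 ± 14.9 CPM) in 9 of 9 mice and on average 61.0 times its level in the whole library. Agrn, which encodes agrin, was at 124, 78.6 and 110.1 CPM in the young AAV-EGFP mice, 161, 107 and 131 CPM in the aged AAV-EGFP mice and 107, 98.3 and 47.7 CPM in the aged AAV-B3GNT3 mice. Its order over pericytes (80.8 ± 14.7 CPM) held in 7 of 9 mice and was not past the threshold (adjusted p = 0.153, exact permutation test). Sdc3 and Extl3 were at 4.09 and 3.21 times their whole-library level in BECs. Pericyte markers were also present in BEC nuclei, at 785 to 1506 CPM in sum against 6928 to 8288 CPM in pericytes, with 5 of 6 detected in every library, and their part in the BEC levels of Sdc3 and Gpc3 was not tested.

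Sdc4, Hs3st1, Extl2 and Gpc5 were examined because the study reports them as upregulated with age in brain endothelial cells. That report rests on an earlier bulk RNA-seq dataset of collected cells, whose young mice were younger than those here. The study also found more heparan sulfate on aged vessels and endothelial cells by imaging and flow cytometry. The values below are of RNA in nuclei of virus-treated mice and are not a repeat of those measurements. Here their counts in BEC nuclei were small. Sdc4 gave 25 UMIs over the 9 mice, with 1, 7 and 0 in young AAV-EGFP, 0, 6 and 2 in aged AAV-EGFP and 1, 6 and 2 in aged AAV-B3GNT3 mice. Hs3st1 gave 71, with 9, 7 and 6, then 8, 2 and 4, then 8, 11 and 16. Extl2 gave 25, with 5, 3 and 2, then 1, 1 and 3, then 3, 2 and 5. These 3 fell under the count minimum of the test. Their groups overlapped in CPM except that Hs3st1 was higher in each aged AAV-B3GNT3 mouse (42.9, 41.6 and 84.9 CPM) than in each young one (26.7, 26.2 and 30.0 CPM). With no count minimum their log2 fold changes with age were 0.53 ± 0.82 for Sdc4, -0.07 ± 0.57 for Hs3st1 and -0.41 ± 0.87 for Extl2 (adjusted p of 0.875 or more, edgeR). Gpc5 could be tested, at 690.2, 1032 and 420.4 CPM in the young AAV-EGFP mice, 301, 494 and 444 CPM in the aged AAV-EGFP mice and 204, 1029 and 329 CPM in the aged AAV-B3GNT3 mice, and its log2 fold change with age of -0.71 ± 0.49 did not pass (adjusted p = 0.59, edgeR). Its BEC level averaged 0.558 times that of the whole library, and free RNA alone would give an estimated 372 CPM, and the astrocyte markers in BEC nuclei summed to 123 to 382 CPM, with 2 of 5 in every library.

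**Figure D3:**
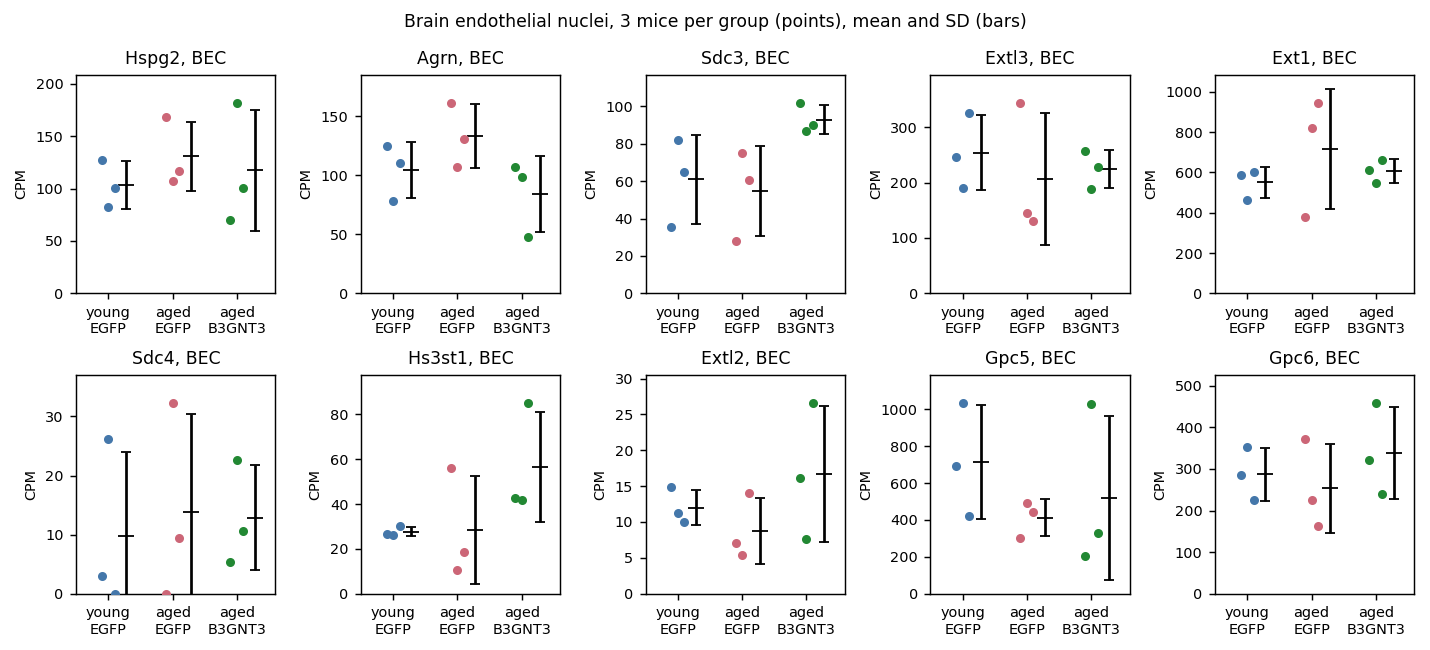
Level in BEC nuclei of 10 members, in CPM on linear axes from 0, with 1 point per mouse in each of the 3 groups and the group mean ± SD as a bar, which is cut off at 0 where it would go below. The points of the 3 groups overlap for Hspg2, Extl3, Ext1, Sdc4, Extl2, Gpc5 and Gpc6, and the SD of Sdc4 is larger than its mean in young and aged AAV-EGFP mice.

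Of the 36 members, 14 could be tested in BECs, and edgeR's quasi-likelihood test called 0 with age (0.0211% of all 4729 genes tested were called, and 2 members had an unadjusted p under 0.05) and 0 with treatment (0.296% of all genes, and 4 members at an unadjusted p under 0.05). DESeq2 also called 0 in both comparisons. The smallest adjusted p was that of Hs2st1, the 2-O-sulfotransferase, with age. It was at 160.0, 142 and 110.1 CPM in the young AAV-EGFP mice, 49, 48.3 and 23.4 CPM in the aged AAV-EGFP mice and 102, 113 and 69 CPM in the aged AAV-B3GNT3 mice, lower in each aged AAV-EGFP mouse than in each mouse of either other group, and its log2 fold change was -1.73 ± 0.36 with an adjusted p of 0.0715. These Hs2st1 levels rest on 54, 38 and 22 UMIs in the young AAV-EGFP, 7, 9 and 5 in the aged AAV-EGFP and 19, 30 and 13 in the aged AAV-B3GNT3 mice. In the same order, the estimated free RNA share in BECs was 35.1, 44.3 and 31.6%, then 21.8, 54.5 and 54.9%, then 20.4, 35.2 and 61.7%. The part of free RNA in the Hs2st1 levels was not tested. Hs3st4 in BECs rested on a single library, with 1277 CPM in aged AAV-EGFP mouse 2 and 23.4 to 273 CPM in the other 8. Mouse B3gnt3 itself gave 18 UMIs in BEC nuclei, with 7, 3 and 1 in young AAV-EGFP, 0, 0 and 0 in aged AAV-EGFP and 0, 3 and 4 in aged AAV-B3GNT3 mice.

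Across all 9 classes, 219 pairs of a member and a class could be tested, with 33 of the 36 members tested in at least 1. With age, 39 pairs were called (17.8%, against 10.5% of all gene and class pairs), 36 as falls and 3 as rises, over 19 members. Most of them were low for their class. In 28 of the 39 pairs, all of them falls, the member stood on average under 0.5 times its whole-library level. After the estimated free RNA had been subtracted, 24 of the 39 had too few UMIs left to be tested, 9 were tested and not called and 6 were called again. The plot of change against level relative to the whole library shows this for every pair. The count was 21 without aged AAV-EGFP mouse 3, 25 without young AAV-EGFP mouse 3 and 24 when no doublets were removed. The pairs are given by class, beginning with the neurons.

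**Figure D4:**
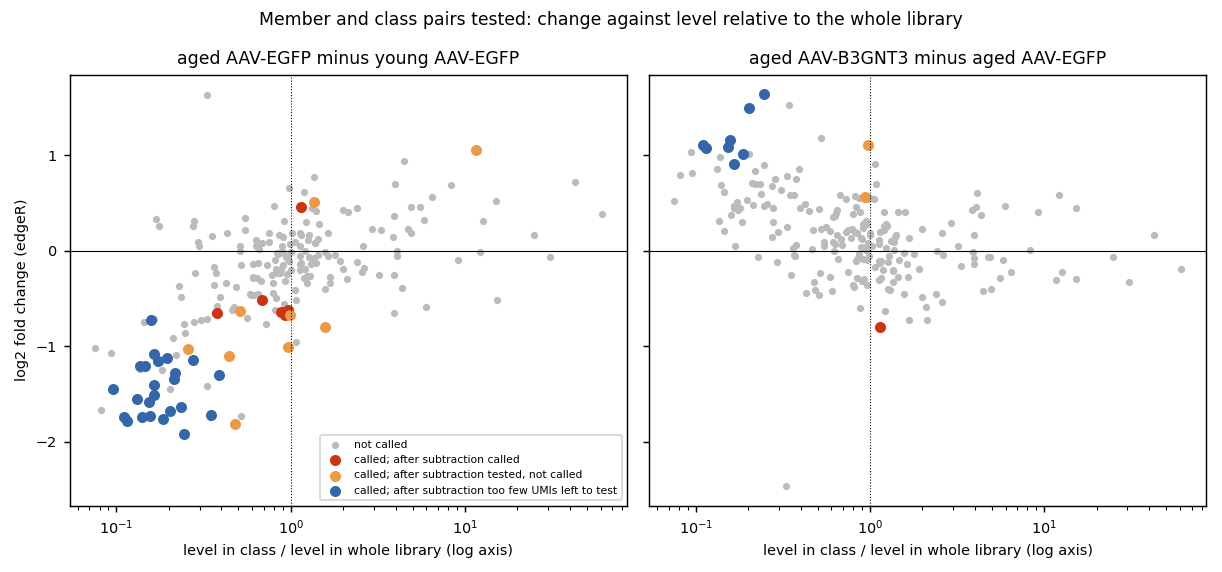
Log2 fold change of each of the 219 tested member and class pairs against the mean ratio of its level in the class to that in the whole library (log axis), for age (left) and treatment (right). Grey points were not called; coloured points were called, by what became of them after the estimated free RNA was subtracted. The called falls with age lie mostly at the left, under 0.5 times the whole-library level.

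In ExN, 4 of 32 members tested were called with age (14.3% of all genes), 1 up and 3 down. Sulf1, the sulfatase, was at 54.5, 39.3 and 46.3 CPM in the young AAV-EGFP mice, 61.1, 69.7 and 64.9 CPM in the aged AAV-EGFP mice and 42.7, 38.6 and 42.6 CPM in the aged AAV-B3GNT3 mice. All aged AAV-EGFP mice lay above all others, and Sulf1 rose with age by 0.46 ± 0.12 (adjusted p = 0.0279, edgeR). By cluster, the rise passed in the layer 6 corticothalamic neurons, where Sulf1 was highest (0.50 ± 0.14, adjusted p = 0.0359, 10.5% of all genes called there), and not in the other 6 clusters tested. The cluster estimate was positive in 5 of 7 and negative in 2, the lowest being -0.71. Over 19 other settings the estimate in ExN lay between 0.35 and 0.55, and the call was lost without young AAV-EGFP mouse 2 or 3 or aged AAV-EGFP mouse 2. Hs6st1, a 6-O-sulfotransferase, was at 20.6, 20.004 and 21.7 CPM in the young AAV-EGFP mice, 14.3, 11.6 and 14.5 CPM in the aged AAV-EGFP mice and 24.1, 22.9 and 18.3 CPM in the aged AAV-B3GNT3 mice, and fell by 0.67 on the log2 scale (SE 0.13, adjusted p = 0.0101). Again the aged AAV-EGFP mice did not overlap with either other group, and the call was lost in 1 of 19 other settings, without young AAV-EGFP mouse 3. Hs6st1 fell in 4 of 11 neuron clusters tested, namely upper-layer (-0.71 ± 0.18, 12.6% of all genes called), middle-layer (-0.79 ± 0.21, 9.61%), the cluster led by Hs3st2 (-0.54 ± 0.16, 9.86%) and the Lamp5 interneuron cluster (-1.45 ± 0.27, 1.46%), and its estimate was negative in all 11. The Lamp5 cluster also passed the Vip interneuron markers and had Vip, not Lamp5, among its leading genes. The middle-layer cluster also passed the upper-layer markers.

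Gpc1, a lipid-anchored glypican, was at 9.56, 7.09 and 8.44 CPM in the young AAV-EGFP mice, 5.84, 5.3 and 5.52 CPM in the aged AAV-EGFP mice and 9.46, 10.5 and 6.81 CPM in the aged AAV-B3GNT3 mice in ExN, and fell with age by 0.62 on the log2 scale (SE 0.18, adjusted p = 0.0382). Sulf2, the other sulfatase, was at 49.2, 42.7 and 53.8 CPM in the young AAV-EGFP mice, 33.4, 35.3 and 35.4 CPM in the aged AAV-EGFP mice and 46.1, 47.6 and 31.1 CPM in the aged AAV-B3GNT3 mice, and fell by 0.52 (SE 0.15, adjusted p = 0.0394). For both, each aged AAV-EGFP mouse was below each young mouse. The estimates of the sulfatases had opposite signs in the class sum, and the difference between them was not tested. Gpc1 was called in 13 and Sulf2 in 12 of 19 other settings, with 6 losses each on leaving out a mouse. By neuron cluster, Gpc1 fell in 1 of the 10 tested, that led by Hs3st2 (-0.96 ± 0.26), with a negative estimate in 7. Sulf2 fell in 2 of 11, the same cluster (-0.72 ± 0.19) and middle-layer neurons (-1.01 ± 0.24), with a negative estimate in all 11. All 4 calls in ExN were kept after subtraction of the estimated free RNA. Its share was 6.95 to 7.78% in young AAV-EGFP, 3.78 to 6.01% in aged AAV-EGFP and 6.11 to 8.23% in aged AAV-B3GNT3 libraries. In that order, oligodendrocyte markers in ExN summed to 148 to 188, 91.5 to 116 and 157 to 193 CPM. Astrocyte markers summed to 25.3 to 36.1, 14.4 to 18.4 and 21.7 to 37.4 CPM. OPC markers overlapped, and MG markers were at 25.4 to 36.1, 38.1 to 39.3 and 27.1 to 39.3 CPM. Their part in the calls was not tested.

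In InN, 3 of 30 members were called with age, all falls (4.01% of all genes). Hs6st1 was at 26.3, 20.8 and 21.3 CPM in the young AAV-EGFP mice, 16.4, 11.5 and 15.1 CPM in the aged AAV-EGFP mice and 27, 22.1 and 19.8 CPM in the aged AAV-B3GNT3 mice (log2 fold change -0.67 ± 0.17, adjusted p = 0.0418). Hs3st1 was at 24.3, 20.3 and 28.4 CPM in the young AAV-EGFP mice, 14.8, 14.7 and 16.7 CPM in the aged AAV-EGFP mice and 20.3, 20.2 and 26.6 CPM in the aged AAV-B3GNT3 mice (-0.64 ± 0.16, adjusted p = 0.041). Ext1, the polymerase, was at 359.5, 394 and 388 CPM in the young AAV-EGFP mice, 294, 233 and 194 CPM in the aged AAV-EGFP mice and 268, 305 and 262 CPM in the aged AAV-B3GNT3 mice (-0.65 ± 0.16, adjusted p = 0.041). On average Hs6st1 stood at 0.994, Hs3st1 at 0.878 and Ext1 at 0.378 times the whole-library level. In all 3 cases the young mice lay above the aged AAV-EGFP mice without overlap. The free RNA share in InN was 8.70 to 9.31% in young AAV-EGFP, 4.29 to 8.66% in aged AAV-EGFP and 8.19 to 10.4% in aged AAV-B3GNT3 libraries. In that order, astrocyte markers in InN summed to 26.8 to 42.5, 13.8 to 15.8 and 24.7 to 37.5 CPM. Oligodendrocyte markers summed to 131.4 to 191.7, 114.5 to 131.1 and 156.9 to 163.3 CPM. Those of ExN and OPC overlapped between young and aged AAV-EGFP libraries. Their part in the falls was not tested. After subtraction of free RNA Hs3st1 and Ext1 were called again, with adjusted p values of 0.0486 and 0.0492 (edgeR), and Hs6st1 was not (0.0537). The Hs6st1 estimate lay between -0.80 and -0.57 over 19 other settings, the subtraction among them. Over 19 other settings Ext1 was called in 11, Hs3st1 in 10 and Hs6st1 in 10. All 3 calls were lost with only the 2 groups compared, and on leaving out young AAV-EGFP mouse 1 or 3, aged AAV-EGFP mouse 2 or 3 or aged AAV-B3GNT3 mouse 1. By neuron cluster, with 5.12% of all gene and cluster pairs called with age, Hs3st1 was called in 0 of 11 by edgeR (4 at an unadjusted p under 0.05), with a negative estimate in 9. Ext1 fell in 3 of 12, namely the somatostatin interneuron cluster (-0.59 ± 0.14, 4.73% of all genes called there), the Drd2 cluster (-0.78 ± 0.19, 3.46%) and, among ExN, the dentate granule neurons (-1.23 ± 0.21, 0.884%), with a negative estimate in 9. The somatostatin cluster also passed the parvalbumin interneuron markers, and the Drd2 cluster those of Drd1 striatal-like neurons.

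In astrocytes, 9 of 30 members were called with age (11.8% of all genes), 1 up and 8 down. The rise was Hs3st3a1, at 81.1, 52.2 and 39.9 CPM in the young AAV-EGFP mice, 98.6, 136 and 133 CPM in the aged AAV-EGFP mice and 127, 89.2 and 110.0 CPM in the aged AAV-B3GNT3 mice, with a log2 fold change of 1.06 ± 0.22 (adjusted p = 0.00679). It was the 1 called pair of the comparison at more than 2 times the whole-library level (11.6 times on average), and it kept an estimate of 0.96 after subtraction of free RNA, with an adjusted p of 0.0866. Its neighbour Hs3st3b1 had an estimate of 0.68 ± 0.25 in astrocytes (adjusted p = 0.0827), and in fibroblasts Hs3st3a1 had one of -0.52 ± 0.30 (adjusted p = 0.363). Gpc4, a glypican that astrocytes release to promote synapse formation, was at 42.9, 42.2 and 30.8 CPM in the young AAV-EGFP mice, 24, 20.1 and 24.1 CPM in the aged AAV-EGFP mice and 31.5, 35.8 and 30.5 CPM in the aged AAV-B3GNT3 mice, and fell by 0.80 (SE 0.18, adjusted p = 0.0107), at 1.58 times the whole-library level on average. Hs6st1 was at 23.7, 19.3 and 24.8 CPM in the young AAV-EGFP mice, 14.2, 6.39 and 13.8 CPM in the aged AAV-EGFP mice and 26.7, 30.6 and 22.1 CPM in the aged AAV-B3GNT3 mice, and fell by 1.01 (SE 0.25, adjusted p = 0.0209). After subtraction of free RNA neither was called (adjusted p = 0.0626 for Gpc4 and 0.101 for Hs6st1), with estimates of -0.92 and -1.12 that were no smaller in size. With no doublets removed the calls of Hs3st3a1, Gpc4 and Hs6st1 were lost as well. Leaving out aged AAV-EGFP mouse 3 ended the call of Gpc4, and leaving out young AAV-EGFP mouse 1 or 3 or aged AAV-EGFP mouse 2 that of Hs6st1. Gpc5 and Sdc4, both led by astrocytes, were not called, with estimates of 0.31 ± 0.15 (adjusted p = 0.181) and 0.52 ± 0.31 (adjusted p = 0.285).

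**Figure D5:**
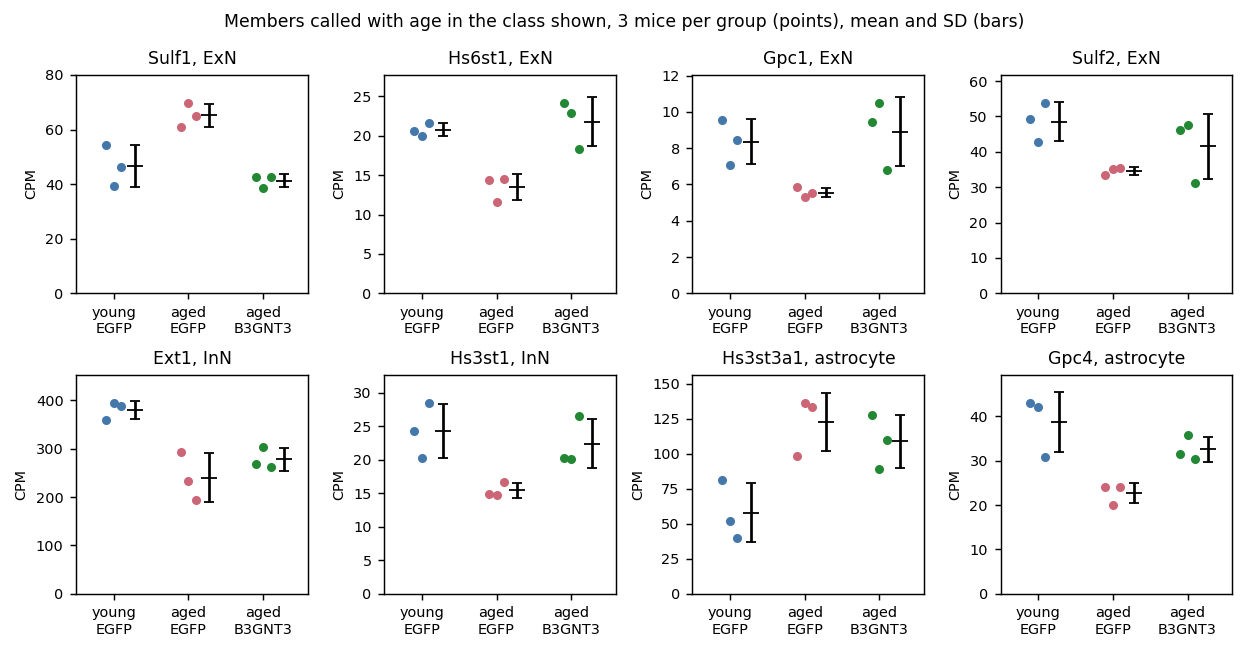
Level in CPM (linear axes from 0) of 8 members in a class where they were called with age, with 1 point per mouse and the mean ± SD per group as a bar. Sulf1 in ExN and Hs3st3a1 in astrocytes are higher in all 3 aged AAV-EGFP mice than in all 3 young mice, and the other 6 are lower.

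The other 6 astrocyte calls were falls of members led by another class, at a low level. Hs6st3, for example, was at 276, 254 and 236 CPM in the young AAV-EGFP mice, 77.9, 90.8 and 62.8 CPM in the aged AAV-EGFP mice and 162, 214 and 169.6 CPM in the aged AAV-B3GNT3 mice, which is 0.0405 to 0.162 times its whole-library level, and had a log2 fold change of -1.74 ± 0.17 (adjusted p = 0.000301). Hs3st4, Hs3st5, Ndst3, Hs6st2 and Hs3st2 fell likewise, by 0.72 to 1.78 on the log2 scale. With no doublets removed all 6 calls were lost, and the estimates became -0.19 for Hs3st4, -0.46 for Hs6st3, -0.44 for Ndst3, -0.50 for Hs3st5, -0.54 for Hs6st2 and -0.34 for Hs3st2, which was called in 6 of 18 other settings. None of the 6 had enough UMIs left to be tested after subtraction of free RNA, whose estimate in astrocytes was 21.0 to 24.4% in young AAV-EGFP and 9.75 to 22.2% in aged AAV-EGFP libraries. The 5 ExN markers in astrocytes, all detected in every library, summed to 243 to 272 CPM in young and 167 to 318 CPM in aged AAV-EGFP libraries. The 5 OPC markers, also all detected in every library, summed in astrocytes to 174 to 182 CPM in young AAV-EGFP, 89.5 to 105 CPM in aged AAV-EGFP and 111 to 150 CPM in aged AAV-B3GNT3 libraries. The 5 oligodendrocyte markers summed to 350 to 471, 225 to 317 and 342 to 359 CPM. In both of these lists the aged AAV-EGFP libraries were below the others. The OPC markers also summed to 693 to 883 CPM in ExN and 414 to 558 CPM in InN, against 7319 to 8757 CPM in OPC. This list therefore does not separate OPC from neuron RNA. The 5 InN markers, all detected in every library, overlapped, at 302 to 362 CPM in young and 323 to 546 CPM in aged AAV-EGFP libraries. The part of these levels in the falls was not tested.

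Oligodendrocytes had the most member calls with age, 12 of 31 (21.9% of all genes), 11 of them falls. The rise was Ndst1, at 17.3, 14 and 15.8 CPM in the young AAV-EGFP mice, 19.6, 24.7 and 22.8 CPM in the aged AAV-EGFP mice and 22.1, 19 and 21.4 CPM in the aged AAV-B3GNT3 mice (log2 fold change 0.52 ± 0.17, adjusted p = 0.0459), and it was past the threshold in 6 of 19 other settings. Hs2st1 was at 106, 98.2 and 102 CPM in the young AAV-EGFP mice, 82.8, 57.1 and 57.9 CPM in the aged AAV-EGFP mice and 83, 121 and 82.9 CPM in the aged AAV-B3GNT3 mice (-0.63 ± 0.18, adjusted p = 0.0218), at 0.511 times the whole-library level. The call of Hs2st1 was kept in 14 of 19 other settings and lost without young AAV-EGFP mouse 1 or 3, without aged AAV-EGFP mouse 2 or 3, and after subtraction of free RNA. The remaining 10 were members that other classes express more. Gpc5 was at 319.6, 277 and 219.9 CPM in the young AAV-EGFP mice, 90.5, 99.1 and 63.6 CPM in the aged AAV-EGFP mice and 219, 403 and 149 CPM in the aged AAV-B3GNT3 mice (-1.68 ± 0.30, adjusted p = 0.00265), and Gpc6 at 157, 143 and 134 CPM in the young AAV-EGFP mice, 43, 50.7 and 34 CPM in the aged AAV-EGFP mice and 80.7, 131 and 66.8 CPM in the aged AAV-B3GNT3 mice (-1.76 ± 0.23, adjusted p = 0.00144). Hs3st4 was at 169, 143 and 199.6 CPM in the young AAV-EGFP mice, 52.8, 78.5 and 46.7 CPM in the aged AAV-EGFP mice and 98.1, 159 and 103 CPM in the aged AAV-B3GNT3 mice (-1.51 ± 0.23, adjusted p = 0.00174).

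Hs6st3 in oligodendrocytes was at 388, 338 and 303 CPM in the young AAV-EGFP mice, 111, 145 and 84.6 CPM in the aged AAV-EGFP mice and 232, 307 and 243 CPM in the aged AAV-B3GNT3 mice (-1.58 ± 0.19, adjusted p = 0.00144). For Gpc5, Gpc6, Hs3st4 and Hs6st3 the aged AAV-EGFP mice were below every other mouse. Lower still were Ndst3, at 43.7, 44.4 and 41.1 CPM in the young AAV-EGFP mice, 23.6, 25.8 and 10.5 CPM in the aged AAV-EGFP mice and 23.6, 36.5 and 31.9 CPM in the aged AAV-B3GNT3 mice, Hs3st2, at 23.4, 16.8 and 18 CPM in the young AAV-EGFP mice, 5.04, 12.3 and 7.72 CPM in the aged AAV-EGFP mice and 13.2, 18.7 and 10.2 CPM in the aged AAV-B3GNT3 mice, and Hs3st5, at 26.2, 31.3 and 12.7 CPM in the young AAV-EGFP mice, 10.1, 10.7 and 6.07 CPM in the aged AAV-EGFP mice and 12.2, 14.8 and 12.6 CPM in the aged AAV-B3GNT3 mice. Hs6st2 was at 38.7, 37.9 and 23.6 CPM in the young AAV-EGFP mice, 17.8, 17.8 and 13.8 CPM in the aged AAV-EGFP mice and 21.1, 28.6 and 24.7 CPM in the aged AAV-B3GNT3 mice and Ndst4 at 23.6, 34.4 and 27.9 CPM in the young AAV-EGFP mice, 23.4, 7.76 and 9.74 CPM in the aged AAV-EGFP mice and 11.2, 22.6 and 22.8 CPM in the aged AAV-B3GNT3 mice. The call of Ndst4 was kept in 10 of 19 other settings and lost on leaving out any young or aged AAV-EGFP mouse but aged AAV-EGFP mouse 1, with the replicate block, with no upper limit on genes, with finer clustering and after subtraction of free RNA. That of Hs3st2 was lost in 2 of 18, without young AAV-EGFP mouse 1 or aged AAV-EGFP mouse 3. Sulf1 was at 11.1, 10.8 and 7.6 CPM in the young AAV-EGFP mice, 3.98, 7.76 and 2.39 CPM in the aged AAV-EGFP mice and 6.83, 8.37 and 5.52 CPM in the aged AAV-B3GNT3 mice (-1.08 ± 0.36, adjusted p = 0.0478), the direction opposite to that in ExN, and the difference between the 2 effects was 1.59 ± 0.35 (adjusted p = 0.0272 over 12982 genes, limma on within-mouse differences). This difference was examined because the 2 calls had opposite signs in the same counts, so that the test was not independent of them. The oligodendrocyte call was kept in 7 of 18 other settings, with estimates of -1.69 to -0.71, and was lost on leaving out any of 7 mice. Sulf1 in oligodendrocytes was at 0.165 times its whole-library level. Of the 12 calls, 8 had too few UMIs left to test after subtraction of free RNA and 4 were tested and not called. The OPC markers in oligodendrocytes, 4 of 5 of them detected in every library, summed to 162 to 177 CPM in young AAV-EGFP, 67.3 to 111 CPM in aged AAV-EGFP and 126 to 189 CPM in aged AAV-B3GNT3 libraries. This list, at 693 to 883 CPM in ExN and 414 to 558 CPM in InN, does not separate OPC from neuron RNA. The markers of astrocytes, ExN and InN overlapped between young and aged AAV-EGFP libraries, at 121 to 267 and 151 to 245 CPM for astrocytes, at 292 to 301 and 195 to 345 CPM for ExN and 182 to 356 and 139 to 601 CPM for InN, with 5 of 5 in every library in each list. The part of these levels in the calls was not tested. Oligodendrocytes also divided by group. A finer cluster of 5705 nuclei had 1252, 2065 and 1923 from the aged AAV-EGFP mice, 4 to 10 from each young mouse and 53 to 227 from each aged AAV-B3GNT3 mouse, and its part in these calls was not tested.

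In MG, 6 of 17 members were called with age, all falls (14.7% of all genes), with a median over the members tested of -0.86 against 0.03 over all genes. Gpc5 was at 396, 355 and 295 CPM in the young AAV-EGFP mice, 95.8, 107 and 83.2 CPM in the aged AAV-EGFP mice and 270.0, 440.2 and 181 CPM in the aged AAV-B3GNT3 mice (-1.92 ± 0.27, adjusted p = 8.96e-05), Gpc6 at 209, 172 and 184 CPM in the young AAV-EGFP mice, 82.6, 62.1 and 46.5 CPM in the aged AAV-EGFP mice and 113, 114 and 80.2 CPM in the aged AAV-B3GNT3 mice (-1.63 ± 0.25, adjusted p = 0.000123) and Hs6st3, Hs3st4, Hs3st5 and Hs6st2 fell by 1.27 to 1.72. Hs6st2 lost its call in 6 of 18 other settings, with DESeq2, with no doublets removed and without young AAV-EGFP mouse 1 or 2 or aged AAV-EGFP mouse 1 or 3, and Hs3st5 in 3 of 17, with DESeq2 and without young AAV-EGFP mouse 3 or aged AAV-EGFP mouse 3. The summed markers of some other classes in MG differed with age and those of others overlapped. Those of OPC were at 234 to 274 CPM in young AAV-EGFP, 61.2 to 127 CPM in aged AAV-EGFP and 182 to 243 CPM in aged AAV-B3GNT3 mice, with 3 of 5 in every library, and the 6 MG markers at 2655 to 2962, 4226 to 4336 and 2800 to 3591 CPM. As said for astrocytes, the OPC list does not separate OPC from neuron RNA. The InN markers, 4 of 5 in every library, were at 131 to 172 CPM in young and 69.3 to 130 CPM in aged AAV-EGFP mice. The astrocyte markers, 4 of 5 in every library, overlapped, at 316 to 526 CPM in young and 324 to 659 CPM in aged AAV-EGFP mice, as did the 5 ExN markers (365 to 404 and 237 to 497 CPM) and the 5 oligodendrocyte markers (576 to 682 and 387 to 619 CPM). Their part in the falls was not tested. All 6 stood under 0.5 times their whole-library level and had too few UMIs left after subtraction. Of the members highest in MG, Extl3 had an estimate of 0.56 ± 0.19 (adjusted p = 0.056), and Hs6st1 in MG one of -0.05 ± 0.26 (adjusted p = 0.929).

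In the mural and stromal classes and in OPC the calls were fewer. In pericytes 3 of 16 members fell (5.58% of all genes), namely Hs6st2, Hs3st4 and Hs6st3. Aged AAV-EGFP mouse 1 had 48 pericyte nuclei, the fewest, and an estimated free RNA share of 75.6% there, against 19.3 to 43.1% in the other 8. The call of Hs3st4 was kept in 13 of 18 other settings and lost without young AAV-EGFP mouse 2 or 3, without aged AAV-EGFP mouse 2 or 3, and with no doublets removed (-0.80). That of Hs6st3 was lost in 1 of 18, with no doublets removed (-1.06). The call of Hs6st2 was lost in 3 of 18, without young AAV-EGFP mouse 2 or aged AAV-EGFP mouse 3 and after subtraction of free RNA. Hs6st2 in pericytes was at 83.6, 112 and 91 CPM in the young AAV-EGFP mice, 30.3, 30.0 and 21.4 CPM in the aged AAV-EGFP mice and 11.1, 28.3 and 26 CPM in the aged AAV-B3GNT3 mice (-1.81 ± 0.40, adjusted p = 0.0161), ranged from 0.143 to 1.03 times its whole-library level over the 9 mice, and had an adjusted p of 0.0586 after subtraction. Gpc3 and Gpc6, which pericytes lead, had estimates of 0.72 ± 0.24 (adjusted p = 0.0816) and 0.45 ± 0.16 (adjusted p = 0.101), and every aged AAV-EGFP mouse was above every young mouse for both. Fibroblast markers in pericytes summed to 1571 to 2170 CPM in young and 694 to 1544 CPM in aged AAV-EGFP libraries. The BEC markers there summed to 232 to 291 and 353 to 1294 CPM, and those of ExN, InN and astrocytes overlapped. Their part in the pericyte estimates was not tested. In fibroblasts 1 of 21 members (4.33% of all genes) and in OPC 1 of 28 (5.02% of all genes) was called, Hs3st4 in both cases, falling by 1.55 and 1.45 from low levels. With no doublets removed the estimates were 0.37 in fibroblasts and -0.02 in OPC, and neither was called.

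With treatment, 11 of the 219 pairs were called (5.02%, against 3.39% of all gene and class pairs), 10 up and 1 down. The count was 3 without aged AAV-B3GNT3 mouse 2, 6 without aged AAV-B3GNT3 mouse 1 and 20 without aged AAV-EGFP mouse 1. The aged AAV-EGFP mice also serve in the comparison of age, so that the 2 comparisons are not independent. In ExN, 2 of 32 were called (2.44% of all genes). Sulf1 fell by 0.80 on the log2 scale (SE 0.12, adjusted p = 0.0251) and Hs6st1 rose by 0.56 (SE 0.13, adjusted p = 0.0453), with the values given above. For Sulf1 the call was kept after subtraction of free RNA and for Hs6st1 the adjusted p became 0.0508 (edgeR). The Hs6st1 estimate lay between 0.50 and 0.68 over 19 other settings, the subtraction among them. By cluster, where 1.14% of all gene and cluster pairs were called with treatment, edgeR called Sulf1 in 0 of 7 clusters (3 at an unadjusted p under 0.05), and its estimate was negative in 5 of them, the lowest being -0.67. The make-up of ExN differed too. The layer 6 corticothalamic clusters, where Sulf1 was highest, held 17.6, 16.9 and 17.4% of ExN nuclei in the young AAV-EGFP mice, 13.6, 23.0 and 21.7% in the aged AAV-EGFP mice and 15.95, 13.3 and 10.9% in the aged AAV-B3GNT3 mice, and the part of these shares in the ExN levels was not tested. Of 11 clusters edgeR called Hs6st1 in 0, although 8 had an unadjusted p under 0.05, and its estimate was positive in all. The Hs6st1 call in ExN was kept in 10 of 19 other settings, and that of Sulf1 in 16 of 19, with losses on leaving out aged AAV-EGFP mouse 2 or aged AAV-B3GNT3 mouse 1 or 2.

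In astrocytes 3 of 30 members rose with treatment (4.87% of all genes), namely Hs6st1 by 1.11 ± 0.25 (adjusted p = 0.0261), Hs3st4 by 1.07 ± 0.27 and Hs6st3 by 1.11 ± 0.17. In oligodendrocytes 4 of 31 rose (10.5% of all genes), namely Gpc5 by 1.497 ± 0.29, Hs6st3 by 1.09 ± 0.19, Gpc6 by 1.01 ± 0.22 and Hs3st4 by 0.90 ± 0.23. Gpc6 and Hs3st4 were each called in 16 of 18 other settings, and not without aged AAV-EGFP mouse 3 or aged AAV-B3GNT3 mouse 2. In MG 1 of 17 rose (4.93% of all genes), Gpc5 by 1.64 ± 0.27, and in pericytes 1 of 16 (0.638% of all genes), Hs6st3 by 1.16 ± 0.23. The pericyte call was kept in 8 of 18 other settings, was lost on leaving out any mouse but aged AAV-EGFP mouse 1, and had an estimate of 0.45 with no doublets removed. Hs6st1 in astrocytes was called in 13 of 19 other settings and was not called after subtraction of free RNA (adjusted p = 0.093), with no doublets removed, with only the 2 groups compared, or without aged AAV-EGFP mouse 2 or aged AAV-B3GNT3 mouse 1 or 2. With no doublets removed the astrocyte estimates of Hs3st4 and Hs6st3 turned to -0.51 and -0.29. Otherwise Hs6st3 there lost its call in 1 of 18 settings, without aged AAV-B3GNT3 mouse 2, and Hs3st4 in 5, with only the 2 groups compared and without young AAV-EGFP mouse 2, aged AAV-EGFP mouse 3 or aged AAV-B3GNT3 mouse 1 or 2. Apart from Hs6st1 in astrocytes, these 8 pairs stood under 0.5 times the whole-library level and had too few UMIs left to be tested after subtraction. No member was called with treatment in InN (0.581% of all genes, 7 of 30 members at an unadjusted p under 0.05), OPC (1.28% of all genes, 2 of 28) or fibroblasts (0.666% of all genes, 3 of 21) by edgeR. DESeq2 called 2 members in InN, Hs3st2 and Hs3st5, and 0 in OPC and fibroblasts.

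The rest of the pathway was read from fixed lists, against 10.5% of all gene and class pairs called with age and 3.39% with treatment. Genes that build the linker and start the chain were called in 1 of 40 gene and class pairs with age (Xylt1, the xylosyltransferase, down in oligodendrocytes by 1.24, at 0.138 times its whole-library level) and 1 with treatment. The sulfate donor list gave 1 call of 31 with age, Slc35b2, a transporter of the sulfate donor into the Golgi, which rose by 1.05 ± 0.33 in oligodendrocytes. Sugar nucleotide supply gave 3 falls of 43 with age, Uxs1 in astrocytes and oligodendrocytes and Uap1 in ExN. Lysosomal heparan sulfate breakdown gave 3 rises and 1 fall of 44 with age. Arsg, a lysosomal sulfatase for the chain, rose in MG by 0.93 (47.9, 72.4 and 57.6 CPM in young AAV-EGFP and 119, 101 and 122 CPM in aged AAV-EGFP mice) and in ExN by 0.39. Naglu rose in ExN by 1.13, and Hgsnat fell in MG by 1.18. With treatment that list had 0 calls of 44.

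Chondroitin sulfate synthesis, which uses the same linker, gave 1 rise and 10 falls of 41 pairs with age and 3 rises with treatment, with 9 of the 11 age calls and all 3 treatment calls under 0.5 times the whole-library level. The rise was Chsy1, a chondroitin polymerase, in MG (126, 107 and 141 CPM in young AAV-EGFP and 178, 166 and 291 CPM in aged AAV-EGFP mice). Other proteins that can carry the chain gave 2 rises and 15 falls of 57 with age, 12 of these 17 under 0.5 times the whole-library level, and 4 rises and 2 falls with treatment, 3 of these 6 under that level. The rises include Spock3, a testican, up by 0.74 in oligodendrocytes (723, 686 and 534 CPM against 1168, 1108 and 950 CPM) and down there by 0.91 with treatment. Spock3 fell with age in astrocytes by 1.09, in MG by 0.83 and in OPC by 1.01, from 0.17, 0.373 and 0.163 times its whole-library level. Ligands and receptors that bind the chain gave 10 rises and 31 falls of 131 with age and 13 rises and 2 falls with treatment. Fgf1, a growth factor that signals with heparan sulfate as co-receptor, rose with age in ExN by 1.51, in InN by 0.83 and in OPC by 0.86, and fell in oligodendrocytes by 0.69. In InN it was at 40.8, 43.1 and 60.9 CPM in young AAV-EGFP, 90.0, 89.5 and 74.7 CPM in aged AAV-EGFP and 43.7, 42.3 and 61.8 CPM in aged AAV-B3GNT3 mice. Its receptor Fgfr1 fell in ExN by 0.95 and Fgfr2 rose in oligodendrocytes by 0.63. Of the 41 age calls in that list, 28 were of genes under 0.5 times their whole-library level in the class, among them Fgf1 in ExN, and so were 13 of the 15 treatment calls.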

How the data were processed

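Nuclei were extracted from frozen tissue, cortex and hippocampus pooled, and were sorted and sequenced with the 10x 3′ chemistry. The deposited values are raw UMI counts per gene and nucleus. Per the labels the authors aligned to mm10 with Cell Ranger 4.0.0, whereas the file headers name version 7.2.0, and whether intronic reads were counted is not given in the sources used here. Mice of a group are separate animals, with 1 library each, and p-values are over mice.

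From these counts, barcodes were retained where 200 to 5000 genes were detected and mitochondrial transcripts made up no more than 10% of UMIs. Doublets were marked by simulated neighbours (0.8% per 1000 barcodes). Leiden clusters (2000 variable genes without the members, 15 components, neighbours from scikit-learn 1.9.0, resolution 0.3) were named from fixed markers. UMIs were summed per mouse and class. Age and treatment were tested with edgeR 4.0.16 (quasi-likelihood, TMM, filterByExpr with a minimum count of 10, all 9 samples in 1 fit), with Benjamini-Hochberg adjustment over all genes of a class and a threshold of 0.05. Order between classes was tested by exact sign flips of log2(CPM + 1) differences. The free RNA share of a class sum was the 25th percentile, over marker genes of other classes, of the level in the class relative to the whole library. Differences between classes in an effect used limma 3.58.1, and DESeq2 1.42.0 was an alternative. Scripts were tested on simulated data. Values per sample are given for each member called in any class, for 4 members in BECs and for the 8 with the largest ratio between their highest classes. The members and the lists were chosen with earlier results of these data known.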

Additional observations from a re-analysis of the deposited data

Results flagged for a closer look

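Sulf1 had opposite estimates with age in ExN and in oligodendrocytes. A test on within-mouse differences between the classes gave 1.59 ± 0.35 on the log2 scale (limma, adjusted p = 0.0272 over 12982 genes, of which 1181 passed), with estimates of 0.46 in ExN and -1.08 in oligodendrocytes. The gene and the 2 classes were picked for opposite calls in the same counts, which favoured a large difference beforehand. All 3 aged AAV-EGFP mice were above all 3 young mice in ExN. Sulf1 in oligodendrocytes was at 0.0503 to 0.281 times its whole-library level and had too few UMIs left to be tested after subtraction of the estimated free RNA, whose share was 30.7 to 33.6% in young and 15.7 to 26.7% in aged AAV-EGFP oligodendrocytes. The oligodendrocyte call was kept in 7 of 18 other settings. The part of free RNA in the difference was not tested.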

How the results depend on the processing

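The number of member and class pairs called with age was 39, and became 6 with the estimated free RNA subtracted, 24 with no doublets removed, and 21 to 57 with a mouse left out. With treatment it was 11, and became 1 with free RNA subtracted, 23 with no filter on low counts, 7 with only the 2 groups compared, and 3 to 20 with a mouse left out. DESeq2 called 36 and 16 pairs, of which 34 and 11 were shared with edgeR. The number of members with a separate highest class was 19, and 19 to 23 under the 6 alternatives run for it. Of 915 values for the 50 called pairs under alternatives, 742 kept direction and call, 170 kept direction only, and 3 turned, all with no doublets removed, namely Hs3st4 in fibroblasts with age (0.37) and Hs3st4 (-0.51) and Hs6st3 (-0.29) in astrocytes with treatment. With no doublets removed, 22 of the 39 age calls and 7 of the 11 treatment calls were kept. The cause was not tested. With the replicate number as a block the counts were 38 and 11. Same-numbered mice deviated together with r of -0.40 to 0.45 (median 0.01), and differently numbered mice with r of -0.59 to 0.59 (median -0.01). With 3 mice per group these values cannot tell whether the numbers pair the mice, and the main fits did not pair them. In BECs, with sums of 142743 to 337602 UMIs per mouse, 14 members passed the count filter.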
